A study of Caenorhabditis elegans with 12 samples.

Results

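Ribosomes are built in the nucleolus, where RNA polymerase I copies the rRNA genes, small nucleolar RNA particles modify the transcript, and large assemblies cut and fold it into the small and large subunits. Nucleolar size follows this activity, and in worms small nucleoli and low fibrillarin are known to go with long life. The 8 genes described here, fib-1, ncl-1, dao-5, pro-1, pro-2, pro-3, nol-6 and rbd-1, encode proteins of this pathway or its repressor. They were taken by gene name from the 46726 genes of the deposited table, and all 8 were present and had enough reads to be tested.

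Day-7 adults were sequenced as whole animals, in 6 libraries from the wild-type strain N2 and 6 from TG1660, a strain with the tm2842 deletion of xpf-1, which encodes a nuclease of nucleotide excision repair. Both groups were grown on NGM plates with E. coli OP50, and each library pooled many worms. The only stated difference is the xpf-1 allele, and the mutant is represented by 1 strain. The library titled N2 replicate 6 has a mutant genotype label, but xpf-1 stood at 63.9 to 81.1 CPM (counts scaled to a common library total) over the 6 N2 libraries and at 9.90 to 14.1 CPM in the mutant. The labels mention triplicates while 6 libraries were analysed per group, so the spread behind each p-value is that between libraries and may be technical in part.

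Total counts ran from 18407182 to 22817135 per library, and fib-1, the deepest of the 8 genes, had 4253 to 6291 reads in a library. Transcript length separated the libraries by group. The median log2 deviation of genes over 4000 bases, minus that of genes under 1000 bases, ran from -0.53 to -0.05 in N2 and from 0.10 to 0.46 in the mutant. N2 replicate 2 was the lowest and xpf-1 replicate 1 the highest. Genes over 4000 bases had a median log2 fold change of 0.33 (634 genes) and those under 1000 bases one of -0.04 (4965 genes). Whether this trend is technical or belongs to the strain cannot be told apart, so the folds below are also given with it removed where that changes a call.

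The 8 genes lie on 5 chromosomes, and all are protein-coding. In WBcel235, fib-1 spans chromosome V 15000651 to 15002195 (minus strand), ncl-1 chromosome III 7731387 to 7738067 (plus strand), and dao-5 chromosome I 10187515 to 10190896 (minus strand). On chromosome II, all on the minus strand, pro-1 spans 10539438 to 10541996, pro-2 10339692 to 10345112 and nol-6 1425732 to 1437499. The gene pro-3 spans chromosome V 19102446 to 19118412 (minus strand) and rbd-1 chromosome IV 12724920 to 12730095 (plus strand). The most compact is fib-1, with 5 merged exons in a span of 1545 bases, and the largest span is that of pro-3, 15967 bases with 9 exons. The exons of dao-5 share 5 bases with those of rsa-1 on the opposite strand, and no other member shares exon bases with a neighbour.

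Set per kilobase of deposited gene length, the levels of the 8 genes covered a wide range. In N2, fib-1 stood at 204 ± 11.5 CPM per kilobase (SD, n = 6), followed by dao-5 at 46.8 ± 3.49, pro-2 at 33.0 ± 1.70, ncl-1 at 21.2 ± 3.05, rbd-1 at 16.8 ± 1.65, pro-1 at 13.3 ± 1.27, pro-3 at 11.1 ± 1.21 and nol-6 at 1.93 ± 0.229. The ranges of ncl-1 and rbd-1 overlapped, as did those of rbd-1 and pro-1 and of pro-1 and pro-3. In the mutant the order was the same. There rbd-1 (15.03 ± 0.954), pro-1 (14.7 ± 1.39) and pro-3 (13.5 ± 1.10 CPM per kilobase) overlapped from each to the next, while nol-6 stayed lowest at 2.103 ± 0.336. The deposited length of pro-3 is 2414 bases and its merged exons in Ensembl release 115 sum to 3513 bases, so its level per kilobase depends on the annotation used.

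Of the 8 genes, 2 were lower in the mutant (fib-1 and rbd-1), 2 were higher (dao-5 and pro-3) and 4 did not pass (edgeR quasi-likelihood test, adjusted p of 0.05). Over all 14248 genes tested, 59.7% passed, 29.6% lower and 30.1% higher, so 4 of 8 is no more than the background. The split by direction depends on the scaling: with library totals only, 5023 genes were higher and 3526 lower, with upper quartile factors 5134 and 3513, and under both 3 of the 8 were higher (dao-5, pro-3 and pro-1) and 1 lower (fib-1). The median of all tested genes was then 0.10 in place of 0.03. The median log2 fold change of the 8 was 0.07, against 0.03 over all tested genes, and it was -0.06 with the length trend removed. The median absolute log2 fold change over all tested genes was 0.32, and of the 8 only dao-5 (0.39) exceeded it. None of the 8 passed a test against a 1.5-fold change. Without N2 replicate 6, the library with the conflicting label, the log2 folds were -0.25 for fib-1, 0.43 for dao-5 and 0.29 for pro-3, all still called, and rbd-1 was not called.

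**Figure D1:**
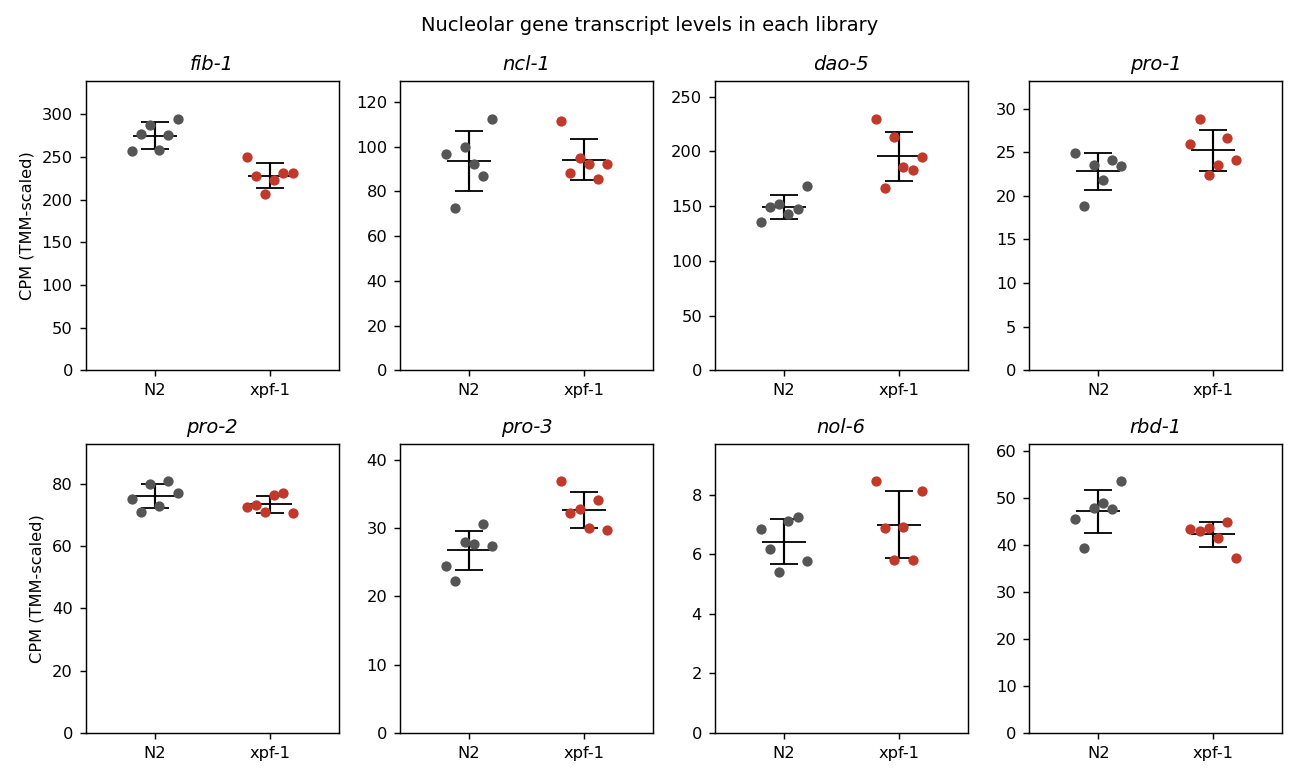
Level of each gene (CPM after TMM scaling, vertical axis from 0) in the 6 N2 and 6 xpf-1 libraries; points are libraries, bars the mean and SD. The 2 groups are apart for fib-1 and overlap for the other 7 genes.

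The rRNA modification enzyme fell. Fibrillarin, encoded by fib-1, is the methyltransferase of box C/D particles and the usual marker of the nucleolus. It had a lowest, median and highest level of 257, 276 and 295 CPM in N2 and of 206, 229 and 250.2 CPM in the mutant. Every mutant library lay below every N2 library. The mean fell from 275 ± 15.5 to 228 ± 14.1 CPM (SD, n = 6 each), or 83.0% of N2, a log2 fold change of -0.27 ± 0.05 (SE; 95% interval -0.37 to -0.17; edgeR adjusted p = 1.98e-05). Over all tested genes, 20.3% had groups apart in that direction. With the length trend removed the log2 fold was -0.25 ± 0.05.

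The repressor of nucleolar size did not pass. NCL-1 is a B-box and NHL-domain protein related to fly Brat, and worms without it have enlarged nucleoli and more fibrillarin. Its transcript ran from 72.5 through a median of 94.5 to 112.5 CPM in N2 and from 85.6 through 92.3 to 111.7 CPM in the mutant. The groups overlapped over most of their range, with N2 replicate 2 lowest and N2 replicate 6 highest. The log2 fold change was 0.01 ± 0.09 (SE), with an interval of -0.18 to 0.20 and an edgeR adjusted p of 0.935. At 4406 bases ncl-1 is the longest of the 8 by deposited length, and with the length trend removed it was lower in the mutant, at -0.21 ± 0.05 log2 units (edgeR adjusted p = 0.000426).

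Within each library the level of fib-1 was set against that of ncl-1, a ratio that does not depend on library scaling. The log2 ratio was 1.57 ± 0.20 in N2 and 1.28 ± 0.12 in the mutant (SD, n = 6), a difference of -0.29 (two-sided exact permutation p = 0.00866). N2 values ran from 1.39 to 1.93 and mutant values from 1.12 to 1.43, so the groups overlapped at their edges. The difference was -0.05 with the length trend removed (exact permutation p = 0.463). It also moved to -0.21 without N2 replicate 2 (exact permutation p = 0.0152).

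The nucleolar phosphoprotein gene dao-5 rose. DAO-5 resembles mammalian NOLC1 and treacle and promotes rRNA gene transcription in worms. It was at 135 to 168 CPM in N2, with a median of 149, and at 166 to 229.9 CPM in the mutant, with a median of 190.3. Mutant replicate 2, the lowest of its group, was just under N2 replicate 6, and the other mutant libraries were above all of N2. The mean went from 149 ± 11.1 to 195 ± 22.7 CPM, a log2 fold change of 0.39 ± 0.07 (SE; interval 0.25 to 0.53; edgeR adjusted p = 1.75e-05). This was the largest change among the 8, and it was 0.26 ± 0.06 with the length trend removed (edgeR adjusted p = 0.000206).

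Of the large-subunit factors pro-1, pro-2 and pro-3, only pro-3 passed, and whether their changes differed from each other was not tested. Their loss in the worm somatic gonad leads to tumours of the proximal germline, for which they are named, and they match yeast Ipi3, Noc2 and Sda1. The transcript of pro-3 was at 22.3, 27.5 and 30.6 CPM in N2 (lowest, median, highest) and at 29.7, 32.5 and 36.8 CPM in the mutant. Only N2 replicate 5 reached into the mutant range. The log2 fold change of pro-3 was 0.29 ± 0.07 (SE; interval 0.14 to 0.44; edgeR adjusted p = 0.00126).

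For pro-1 the lowest, median and highest were 18.9, 23.5 and 24.9 CPM in N2 and 22.4, 25.0 and 28.9 CPM in the mutant, so the upper N2 libraries overlapped the lower mutant ones. Its log2 fold change of 0.14 ± 0.08 (interval -0.01 to 0.30) did not pass (edgeR adjusted p = 0.108). It passed with library totals only (0.21, edgeR adjusted p 0.0214), with upper quartile factors (0.22, 0.0128) and when a filter of 5 CPM in 6 libraries was used (0.19, 0.0295), in a range of 0.0128 to 0.306 over 21 alternatives with a null of no change. For pro-2 they were 70.9, 76.0 and 80.8 CPM in N2 and 70.8, 72.8 and 77.0 CPM in the mutant, with nearly the same range in both groups. The log2 fold change of pro-2 was -0.05 ± 0.05 (interval -0.16 to 0.05; edgeR adjusted p = 0.397), the narrowest interval around 0 among the genes that did not pass.

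The small-subunit factors were rbd-1, an RNA-binding protein that matches yeast Mrd1 and is needed for 18S rRNA processing, and nol-6, which matches yeast Utp22. In N2, rbd-1 was at 39.3, 47.7 and 53.5 CPM and in the mutant at 37.3, 43.2 and 44.8 CPM (lowest, median, highest). All mutant libraries were below the N2 median, and of N2 only replicate 2 lay within the mutant range. The log2 fold change of rbd-1 was -0.16 ± 0.07 (SE; interval -0.29 to -0.02; edgeR adjusted p = 0.0388). This call passed in 10 of 21 alternatives, with adjusted p from 0.000208 with the length trend removed (log2 fold -0.25) to 0.269 with upper quartile factors. It was lost without N2 replicate 3, 4, 5 or 6 (0.0568, 0.0699, 0.0581 and 0.122) and without xpf-1 replicate 1, 4 or 6 (0.0532, 0.0641 and 0.11).

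The least abundant gene was nol-6, with at most 192 reads in a library. Its lowest, median and highest levels were 5.41, 6.51 and 7.26 CPM in N2 and 5.80, 6.90 and 8.45 CPM in the mutant, and the groups overlapped. Its log2 fold change of 0.12 ± 0.12 had the widest interval of the 8, -0.12 to 0.37 (edgeR adjusted p = 0.377), so a change of that size was not detectable here.

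**Figure D2:**
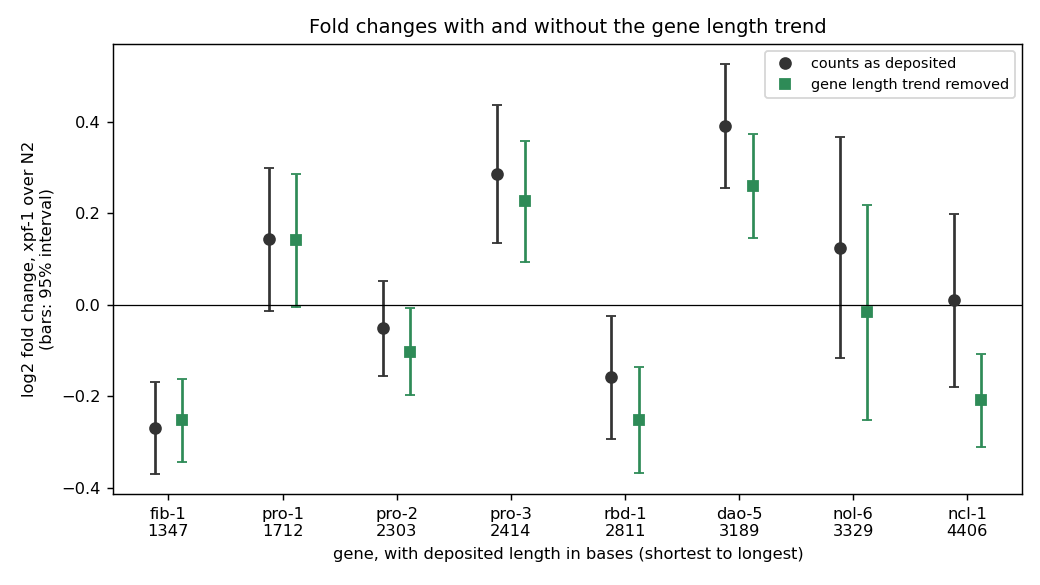
Log2 ratio of xpf-1 to N2 (vertical axis) of the 8 genes, ordered by deposited length in bases; circles are from the counts as deposited, squares with the gene length trend removed, bars are 95% intervals. The estimate of the shortest gene, fib-1, is -0.27 and -0.25, that of the longest, ncl-1, 0.01 and -0.21.

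Whether each of the other 7 genes differed from fib-1 in its change was tested as its log2 ratio to fib-1 within a library. For 6 of the 7 the ratio was higher in the mutant after adjustment over the 7 exact permutation tests. Only 26.3% of all tested genes had a lower log2 fold change than fib-1, so a higher ratio to fib-1 is the usual direction. The share of all genes that would pass this test was not computed, so the count is not particular to these genes. All 7 ratios share fib-1, the gene with the largest fall of the 8 (log2 fold -0.27), so they are not independent results. Whether the other 7 differed from each other was not tested. The largest differences were those of dao-5 (0.65, adjusted exact p = 0.00504), pro-3 (0.56, 0.00504) and pro-1 (0.42, 0.00504), each higher in all 6 mutant libraries than in any N2 library. Those of nol-6, ncl-1 and pro-2 were 0.38, 0.29 and 0.22 (adjusted exact p 0.0152, 0.0121 and 0.0114). The exception was rbd-1, whose ratio to fib-1 differed by 0.12 (adjusted exact p = 0.19). With the length trend removed, pro-1, pro-2, pro-3 and dao-5 still passed, and nol-6 (0.23, adjusted exact p 0.176), ncl-1 (0.05, 0.54) and rbd-1 (0.0038, 0.961) did not.

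**Figure D3:**
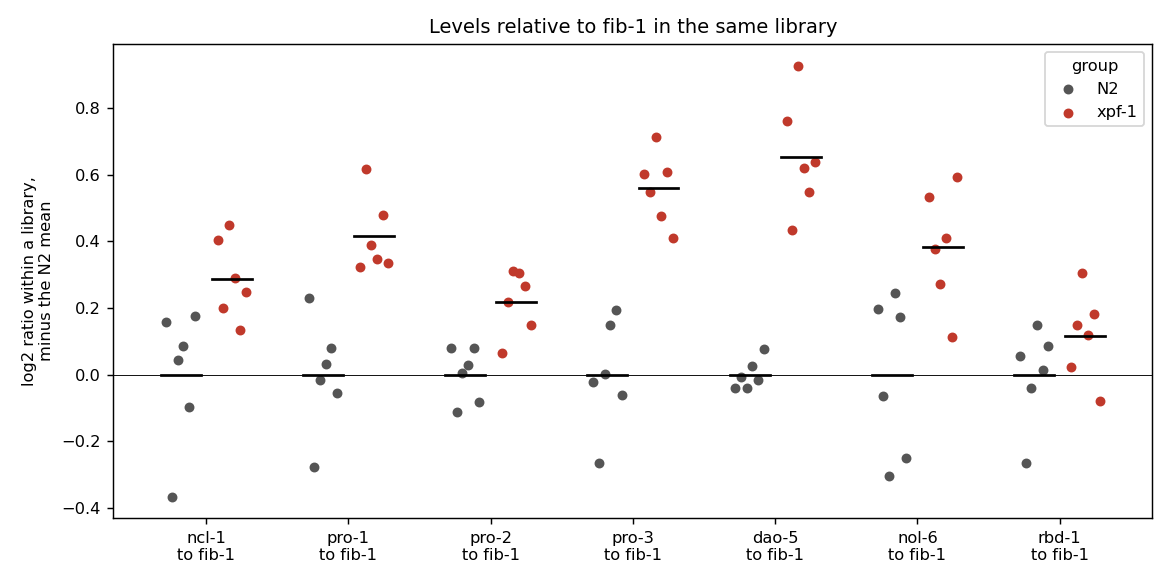
Log2 ratio of each of 7 genes to fib-1 in the same library, minus the N2 mean of that ratio (vertical axis); points are libraries, short lines group means. Mutant libraries sit higher by 0.12 (rbd-1) to 0.65 (dao-5).

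Among libraries of the same group the 8 genes varied weakly together. Over the 28 pairs, the Pearson correlation of deviations from the group mean (12 libraries) had a median of 0.32 and ran from -0.33 for pro-1 with dao-5 to 0.74 for pro-3 with rbd-1, as a description only. The mean deviation of the 8 was lowest in N2 replicate 2 (-0.16 log2) and highest in xpf-1 replicate 1 (0.14), the same libraries that were extreme in the length trend. With that trend removed these became -0.05 and 0.06, and the median correlation 0.07. The 5 other genes whose deviations were most like the mean of the 8, among 8159 protein-coding genes of at least 10 CPM, were par-1 (r = 0.98), mdt-17 (0.97), vab-1 (0.97), lin-59 (0.96) and pad-1 (0.95), over 12 libraries. All but mdt-17 (2255 bases) are over 4000 bases long, and with the length trend removed their correlations were 0.49 for par-1, 0.86 for mdt-17, 0.81 for vab-1, 0.89 for lin-59 and 0.67 for pad-1, so the order did not hold.

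Markers of the germline and oocytes, cells that make many ribosomes, were reduced in the mutant. Of 30 such genes, 28 fell and 0 rose (median log2 fold change -0.86). The 2 that did not pass were perm-4 (-0.09 ± 0.07) and perm-2 (0.02 ± 0.07). Their summed level ran from 8908 to 9708 CPM in N2 and from 5072 to 5931 CPM in the mutant, 61.4% of the N2 mean. No marker was at 0. In whole worms, fewer cells of a type and less RNA per cell cannot be told apart, and the part of the germline in the member values was not tested.

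Ribosomal protein genes, the main products assembled with the rRNA, were lower almost throughout. Of 75 tested genes named rpl or rps, 72 fell and 1 rose (median log2 fold change -0.59). Among coding neighbours within 500 bases, the only such gene was rps-16, which lies 56 bases downstream of fib-1 on the same strand and fell from 1256 ± 161 to 786 ± 78.1 CPM (log2 -0.68 ± 0.07). The log2 ratio of fib-1 to rps-16 was 0.40 higher in the mutant (adjusted exact permutation p = 0.00577 over 4 neighbour pairs), though the 2 groups overlapped.

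The other 3 members with a same-strand coding neighbour within 500 bases, pairs also picked after the data were seen, differed from that neighbour too. With 59.7% of all tested genes called, such differences are not particular to these pairs, and the share among other gene pairs was not computed. R166.3, which lies 105 bases downstream of pro-1, rose by 0.46 ± 0.06 log2 units. The ratio of pro-1 to R166.3 was 0.31 lower in the mutant (difference -0.31, adjusted exact p = 0.00866), with groups that overlapped. Y39B6A.13, 98 bases upstream of pro-3, fell by 0.56 ± 0.06, and the ratio of pro-3 to it was 0.85 higher (adjusted exact p = 0.00432). The lipase regulator lid-1, 404 bases upstream of dao-5, fell by 0.30 ± 0.05, and the ratio of dao-5 to it was 0.68 higher (adjusted exact p = 0.00432).

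The rest of the pathway was described by a list of 84 genes, of which 67 were matched and 66 tested. Of these, 30 were lower (45.5%) and 19 higher (28.8%), against the 29.6% and 30.1% over all genes, and 17 were not called. Their median log2 fold was -0.08. With the length trend removed 33 were lower and 12 higher, against 4409 lower and 4172 higher of all 14248 genes. With library totals only 26 were lower and 21 higher, against 3526 lower and 5023 higher over all genes. With upper quartile factors 27 were lower and 23 higher, against 3513 lower and 5134 higher over all genes. With a filter of 5 CPM in 6 libraries, 27 of the 66 were lower and 20 higher. Over the 9667 genes passing that filter, 3330 were lower and 3510 higher, so the gap to the background was narrower. The shares over all genes are also the background for each role group below. The gene that was not tested, nola-3, had 0 reads in every library. Matching was least complete for the nucleolar helicases, with 3 of 9 listed genes found. It was also incomplete for small-subunit factors (12 of 17), large-subunit factors (18 of 23) and box H/ACA genes (3 of 4).

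Genes of rRNA transcription split. Among 7 genes of RNA polymerase I and its factors, 4 fell and 2 rose. The second largest subunit rpoa-2 fell from 73.8 ± 9.30 to 47.6 ± 2.88 CPM (SD, n = 6), and rpac-19, a subunit shared with RNA polymerase III, fell from 194 ± 22.5 to 135 ± 8.58 CPM. In contrast tif-1A, which matches the initiation factor that recruits the polymerase to rRNA genes, rose from 276 ± 16.3 to 372 ± 11.1 CPM. The gene of the largest subunit, rpoa-1, named after its values were seen because it had the largest rise in the list, went from 20.7 ± 1.38 to 30.1 ± 4.07 CPM, opposite to rpoa-2. Its log2 fold of 0.54 ± 0.08 became 0.23 ± 0.07 with the length trend removed (edgeR adjusted p = 0.00535), while that of rpoa-2 went from -0.63 to -0.80.

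Of the 3 box C/D partners of fibrillarin, 2 fell. The gene snu-13, which is shared with the spliceosome, fell from 827 ± 59.1 to 578 ± 31.8 CPM, and nol-56 from 168 ± 6.13 to 133 ± 9.41 CPM. The third, nol-58, did not pass (log2 fold -0.10 ± 0.05, edgeR adjusted p = 0.0662), but was lower with DESeq2 (adjusted p 0.0415), without a low-count filter (0.0266) and with the length trend removed (0.0235). It also passed without N2 replicate 2 (0.0188) and without xpf-1 replicate 5 (0.0368). In the box H/ACA particle, which makes pseudouridine, the dyskerin gene dkc-1 fell from 317 ± 14.1 to 279 ± 9.91 CPM, a call lost with library totals only (edgeR adjusted p 0.0547), and garr-1 did not pass (log2 fold -0.07 ± 0.07). The genes nol-58, garr-1 and nucl-1 fall outside the naming rule and were added to complete their small groups.

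Small-subunit factors rose in 6 cases and fell in 4 of 12, and with the length trend removed 2 rose and 5 fell. The processome gene nol-10 fell from 96.7 ± 8.03 to 71.4 ± 6.33 CPM and pno-1, which acts in late maturation, from 307 ± 9.20 to 256 ± 10.8 CPM. The processome gene dcaf-13 rose from 68.3 ± 3.39 to 83.4 ± 5.16 CPM. Large-subunit factors divided evenly, with 7 of 18 higher, 7 lower and 4 not passing. There nifk-1 fell from 104.2 ± 3.77 to 58.2 ± 5.45 CPM (log2 fold -0.84 ± 0.06), the only 1 of the 66 that also passed against a 1.5-fold change. In the same group nol-16 fell from 187 ± 10.9 to 126 ± 6.97 CPM, while puf-12, a nucleolar relative of the Pumilio proteins, rose from 225 ± 6.01 to 317 ± 8.53 CPM.

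The exosome, which trims rRNA ends, was mostly lower, with 7 of 12 down and 2 up, or 6 down and 1 up with the length trend removed. Its cap subunit exos-3 fell from 155 ± 9.42 to 98.9 ± 6.54 CPM and exos-4.2 from 166 ± 16.8 to 113 ± 10.8 CPM. The helicase mtr-4, which feeds RNA to it, rose from 129 ± 8.87 to 160.2 ± 3.77 CPM, a log2 fold of 0.31 that was 0.18 with the length trend removed. Of the 3 nucleolar helicases matched (9 were listed), ddx-52 fell by 0.26 ± 0.05 log2 units. The small calls of ddx-10 (-0.17 ± 0.07) and ddx-27 (0.15 ± 0.06) depended on the libraries used. That of ddx-10 was lost without N2 replicate 3, 5 or 6 (edgeR adjusted p 0.0729, 0.075 and 0.0673), without xpf-1 replicate 2, 3, 4 or 6 (0.104, 0.0608, 0.0508 and 0.0534) and under 3 other settings (0.111 to 0.234). That of ddx-27 was lost without N2 replicate 1 (0.0744), without a low-count filter (0.163) and with the length trend removed (0.172). The chaperone gene grwd-1 fell by 0.26 ± 0.05, and the nucleolin gene nucl-1, at 624.6 ± 51.6 and 629 ± 44.8 CPM, had a log2 fold of 0.01 ± 0.06.

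**Figure D4:**
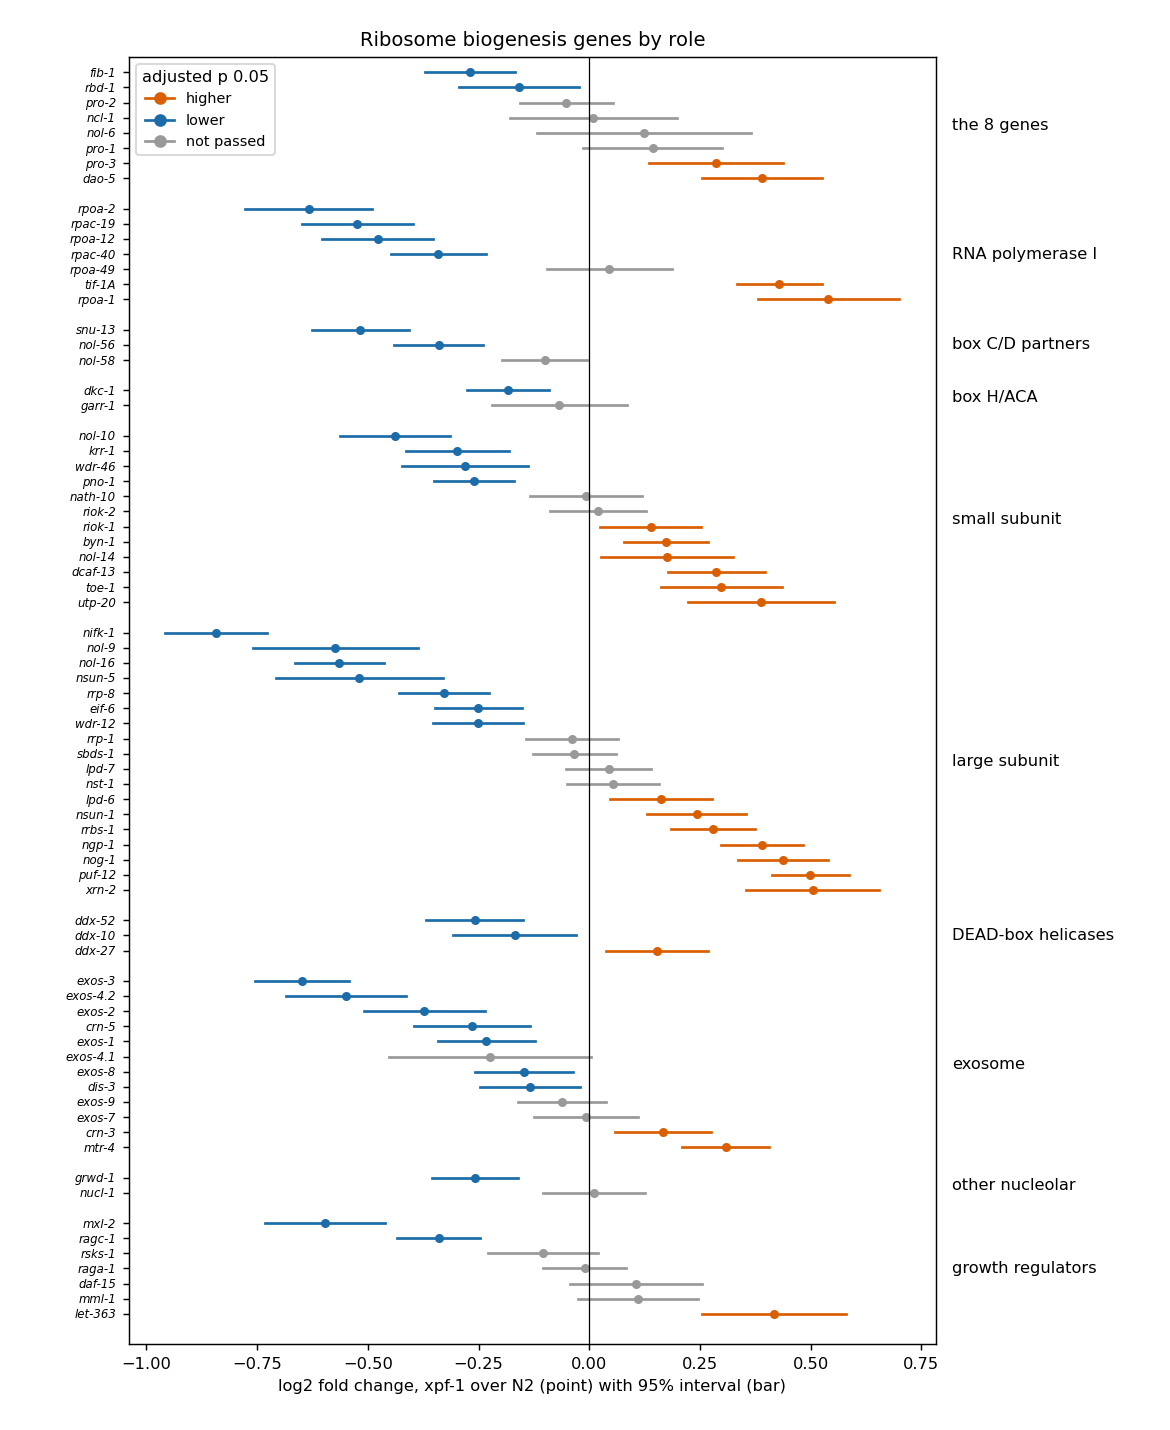
Log2 ratio of xpf-1 to N2 (horizontal axis; bars are 95% intervals) for the 8 genes and 66 other pathway genes by role; orange is higher, blue lower and grey not passed at an edgeR adjusted p of 0.05. The 8 genes lie between -0.27 and 0.39, and the others between -0.84 and 0.54.

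Among 7 genes listed as growth regulators upstream of ribosome synthesis, 2 fell (28.6%), 1 rose (14.3%) and 4 did not pass. Not all of them are known to promote it, so a fall is not read as less ribosome synthesis. Neither share exceeded the 29.6% lower and 30.1% higher over all genes tested. With the length trend removed 4 of the 7 fell and 0 rose. The transcription factor partner gene mxl-2 fell from 56.97 ± 5.46 to 37.7 ± 2.89 CPM and the Rag GTPase gene ragc-1 from 314 ± 15.8 to 248 ± 8.82 CPM. The TOR kinase gene let-363 rose from 80.5 ± 10.3 to 107.7 ± 9.26 CPM, a call that ended with the length trend removed (log2 fold -0.0033, edgeR adjusted p 0.96).

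In the authors' deposited table the log2 fold changes were -0.28 for fib-1, -0.17 for rbd-1, 0.27 for pro-3 and 0.37 for dao-5. The adjusted p-values of the authors' deposited table were 1.6007e-07, 0.036471, 0.0021458 and 4.5991e-07 for these 4 genes and 0.20277 to 0.97115 for the other 4.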

How the data were processed

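The deposited table holds raw read counts per gene for 12 libraries, made by the authors with CASAVA, HISAT2 2.1.0 and featureCounts 1.5.0-p3 on WBcel235, per the submitters' processing notes; the strand setting was not given in the sources used here, nor was the annotation release. Per the file headers, the authors also deposited FPKM values and counts divided by a size factor per library, a signal on the count scale; neither was used. The authors' log2 fold change and p-value columns, also per the file headers, were used only for comparison.

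The test on counts was that of edgeR 4.0.16, run in R 4.3.3 (filterByExpr, TMM, robust quasi-likelihood, xpf-1 against N2, no covariates, Benjamini-Hochberg over 14248 genes, threshold 0.05). Log2 CPM used a prior count of 2. Ratios within libraries were tested by two-sided exact permutation. The length trend was removed through offsets from a lowess curve of log2 CPM on log2 gene length in each library. Replicates differed by more than sampling noise (chi-square per degree of freedom 6.11 to 64.2 over 30 pairs), so none was merged. By this measure N2 replicate 5 was 44.6 to 64.2 from the other N2 libraries, which were 6.11 to 21.5 apart. Mutant replicates 1 and 5 were 14.1 apart and 22.5 to 43.6 from the rest, which were 6.56 to 11.5 apart. What separates these libraries was not tested.

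The 8 genes and all lists were chosen with earlier results of these data known. The text names the 8, up to 3 passing genes of smallest adjusted p per role group, the 5 genes of most similar deviations, and others where stated. Gene symbols were matched by identifier. Alternatives were DESeq2 1.42.0, limma-voom (limma 3.58.1), other scalings and filters, a 1.5-fold null, the length trend, a replicate block and leaving out each library. No sequences are shown. No pairing of samples by replicate number was seen.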

Additional observations from a re-analysis of the deposited data

Results flagged for a closer look

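Among 16 group-wise sets of 6 values (8 genes in 2 groups), 1 library stood far from the rest of its group, where chance gives about 1 in 20. The ncl-1 level of xpf-1 replicate 1 was 111.7 CPM, against 85.6 to 95.2 CPM in the other 5 mutant libraries. Its gap to the next library was 0.632 of the whole range, just over the limit of 0.625 for 6 values. The same library had the largest excess of long over short transcripts (0.46 log2), and the part of this in the ncl-1 value was not tested. Without it the log2 fold change of ncl-1 was -0.04 (edgeR adjusted p = 0.724, in a range of 0.000426 to 0.989 over 21 alternatives).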

How the results depend on the processing

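The calls of fib-1, dao-5 and pro-3 passed in each of the 21 alternatives with a null of no change. A null of a 1.5-fold change left 1643 of the 8509 calls over all genes, 0 of the 4 member calls and 1 of the 49 pathway calls, which follows from the stricter null. Of the named genes 6 changed sign under some alternative. For ncl-1 the log2 fold was -0.21 with the length trend removed, where it was called, -0.0047 with DESeq2, -0.032 without a low-count filter and -0.050 to 0.067 with 1 library left out. For pro-2 it was 0.016 with library totals and 0.024 with upper quartile factors, and for nol-6 -0.016 with the length trend removed. For garr-1 it was 0.00038 with library totals and 0.0063 with upper quartile factors. For nucl-1 it was -0.0039 with DESeq2, -0.030 without a filter, -0.075 with the length trend removed and -0.022 to 0.036 with 1 library left out. For let-363, called at 0.42, it was -0.0033 with the length trend removed. The fib-1 to ncl-1 difference kept its sign at -0.050 with the trend removed and was no longer called; the cause was not tested. No pairing of samples by replicate number was seen (1 of 6 correlations of deviations over 0.1, from -0.0031 to 0.12). Whether samples of the same number shared a batch cannot be told from these correlations. With the replicate number as a block 3 of the 8 genes were called, rbd-1 being lost (adjusted p 0.0541), and 8536 over all genes. As 6 pairs, 0 of 7 ratios to fib-1 passed (smallest adjusted exact p 0.0546), where no exact p can go below 0.0312. With 1 library left out, 8195 to 8594 genes, and 3 to 4 of the 8, were called. The depth limits nol-6 most.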

Other observations

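Markers of other tissues moved less uniformly than those of the germline. Over all genes tested, 29.6% were lower and 30.1% higher. Of 7 neuron markers 3 rose and 0 fell, and their summed level was 344 ± 13.1 in N2 against 370.4 ± 8.73 CPM in xpf-1 libraries (SD, n = 6). Of 6 body wall muscle markers 4 fell and 2 rose, with the myosin heavy chain gene unc-54 at -0.66 ± 0.09 log2 units and a summed level of 560 ± 36.5 and 443 ± 30.8 CPM. Of 8 intestine markers 3 rose and 2 fell, with ranges of the summed level that overlapped (605 to 730.3 and 496 to 774 CPM). Of the 3 epidermis markers with enough reads, 2 rose, among them the GATA factor gene elt-1 (log2 fold 1.14 ± 0.07). Of the 6 tested sperm markers 3 fell and 2 rose, at a summed level of 17.9 to 26.5 CPM over all libraries. No marker of any list had 0 reads in every library.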
